A study of Homo sapiens with 2 samples.

Results

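The genes TGFB1, TGFB2 and TGFB3, which encode the ligands TGF-beta, and TGFBR1, which encodes their type I receptor, were examined for peak summits in a chromatin immunoprecipitation sequencing study of Myocardin (MYOCD). Each locus was the span of the gene in the human assembly GRCh37 with 20 kb added on each side, so membership depended on position and not on score. The 4 loci held 21 of the 105637 summits in the list. The cells were A549, a human lung adenocarcinoma line, with MYOCD stably overexpressed from the lentiviral vector pWPI. An anti-Myocardin antibody was used for 1 sample and nonspecific IgG for the other, and both samples carry the overexpressed gene. The labels name no A549 cells without the transgene and do not say whether the stable line was 1 clone. The list gives a position and a score for each summit and does not say from which of these precipitations it came, so they were not compared here. It was made without replicates and the depth of the libraries is unknown.

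TGF-beta ligands are secreted in a latent form bound to their own propeptide and act once they are released from it. The ligand brings the type II receptor kinase together with the type I receptor TGFBR1, which then phosphorylates SMAD2 and SMAD3. In epithelial cells, lung carcinoma lines among them, this pathway is known for growth arrest and for the loss of epithelial traits. Myocardin does not bind DNA in a sequence-specific way itself. It is recruited by the serum response factor, whose recognition sequence is the CArG box.

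All 4 genes had a summit near the start of their span, but its score differed widely. The nearest summit lay 172 bp upstream of the start of TGFB2 with a score of 19.3, 668 bp inside TGFBR1 with a score of 15.8, 975 bp inside TGFB1 with a score of 11.99 and 1048 bp upstream of TGFB3 with a score of 5.10. The summits of TGFB2 and TGFBR1 ranked among the top 7.06% and 13.2% of the list by score, that of TGFB1 at 26.8% and that of TGFB3 at 89.5%. At TGFB2 and TGFBR1 the summit at the start was also the highest of the locus, which was not so at TGFB1 or TGFB3. For scale, the median score of the list was 8.50, its lowest 2.15 and its highest 281.39, and no unit is named for them.

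The bases before the start of each gene are shown because a summit lay close to each start. They are the RefSeq promoter sequences of GRCh38.p14, read in the direction of transcription. Those of TGFB1, TGFB2 and TGFB3 end at the base before the first start listed for the gene, and that of TGFBR1 ends 30 bases before it. Their coordinates are chr19:41353923-41354172 (minus strand) for TGFB1, chr1:218345086-218345335 (plus strand) for TGFB2, chr14:75983012-75983261 (minus strand) for TGFB3 and chr9:99104863-99105082 (plus strand) for TGFBR1. Capitals mark the Sp1 element GGGCGG in TGFB1, the SMAD element CAGAC in TGFB2, TGFB3 and TGFBR1, and the TEAD element GGAATG in TGFB2, each on either strand.
TGFB1: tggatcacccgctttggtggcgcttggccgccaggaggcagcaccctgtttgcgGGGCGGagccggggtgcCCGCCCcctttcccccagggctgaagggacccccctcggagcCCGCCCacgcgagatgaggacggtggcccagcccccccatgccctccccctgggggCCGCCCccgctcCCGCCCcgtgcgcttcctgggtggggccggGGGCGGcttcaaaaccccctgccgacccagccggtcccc
TGFB2: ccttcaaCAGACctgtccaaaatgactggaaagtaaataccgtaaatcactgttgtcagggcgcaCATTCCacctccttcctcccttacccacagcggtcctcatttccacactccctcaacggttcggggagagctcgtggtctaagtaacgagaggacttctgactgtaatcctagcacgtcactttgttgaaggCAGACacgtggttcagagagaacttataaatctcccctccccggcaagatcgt
TGFB3: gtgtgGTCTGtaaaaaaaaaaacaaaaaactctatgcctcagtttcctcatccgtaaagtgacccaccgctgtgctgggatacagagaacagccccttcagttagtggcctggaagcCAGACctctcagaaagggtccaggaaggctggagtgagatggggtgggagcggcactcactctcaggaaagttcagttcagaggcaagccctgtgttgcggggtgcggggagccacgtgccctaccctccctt
TGFBR1: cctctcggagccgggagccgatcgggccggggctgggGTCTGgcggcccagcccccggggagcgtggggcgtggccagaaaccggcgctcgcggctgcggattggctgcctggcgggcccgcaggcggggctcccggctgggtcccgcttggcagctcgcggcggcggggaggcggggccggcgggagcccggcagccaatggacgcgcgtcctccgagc

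None of the 4 sequences contained a CArG box, a motif that was present in 1.16% of 34943 RefSeq promoters cut to the same 250 bases before the start. TGFBR1 was shown and searched over 220 bases, since another of its 8 listed starts lies 30 bases before the first. The sequence of TGFB1 held 6 matches to GGGCGG, which occurred at least once in 42.5% of promoters, and its GC content was 76.8%. That of TGFBR1 was still richer in GC, at 80.9%, but held no match to GGGCGG. The sequences of TGFB2 (50.4% GC) and TGFB3 (54.8% GC) held 2 matches each to CAGAC, and that of TGFBR1 held 1; this motif of 5 letters occurred in 38.0% of promoters. TGFB2 alone among the 4 held a match to GGAATG, found in 11.9% of promoters, and none of them held the AP-1 element TGANTCA, found in 6.59%. A match describes these letters only. The RefSeq spans are longer than the spans used for the loci by 580 bp at TGFB1, 899 bp at TGFB2, 1262 bp at TGFB3 and 1483 bp at TGFBR1, and the assemblies differ. The summits were therefore not placed within these sequences, and distances refer to the start of the span used for the locus, unless another start is named. By distance, only the nearest summit of TGFB2 lay within 250 bases upstream of that start, at 172 bp. With starts moved upstream by these excess lengths, all 4 nearest summits lay inside the gene. The matches are hence not a description of the sequence at the summits.

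**Figure D1:**
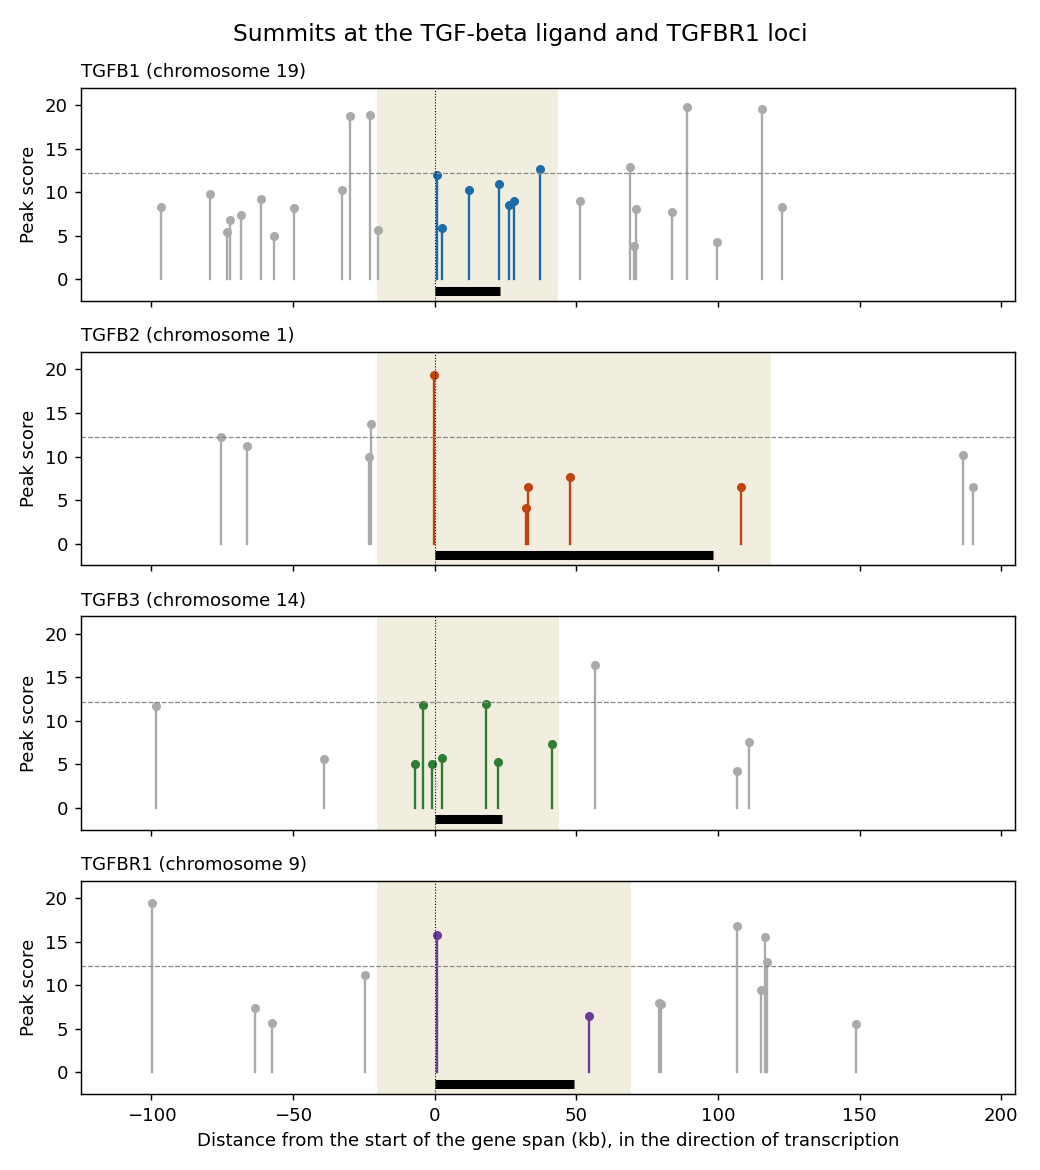
Peak score (vertical axis, no unit named) of each summit against its distance from the start of the gene span in kb, in the direction of transcription. Black bars mark the gene spans, shading the loci, colored stems the 21 summits inside the loci, grey stems those within 100 kb of the span, and the dashed line the score of 12.2 that bounds the top 25% of the list. TGFB2 and TGFBR1 each show 1 tall summit at the start, and TGFB3 shows 7 summits that all lie under the dashed line.

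TGFB1 encodes the ligand best known from fibrosis and from tumor stroma. Its span, chr19:41836812-41859831 on the minus strand, is 23.0 kb long. The locus held 7 summits, 4 of them inside the gene and 3 downstream, and none in the 20 kb upstream of the start. The summit nearest to the start, at position 41858856, scored 11.99, which 20.8% of the summits on chromosome 19 reached. It was followed 1583 bp farther into the gene by one with a score of 5.87. The other summits in the gene lay 11.96 kb and 22.81 kb from the start, the latter close to its 3′ end, with scores of 10.2 and 10.9. The downstream summits lay 3221, 4829 and 14221 bp past the end of the span and scored 8.52, 8.96 and 12.7. The last of these, at position 41822591, was the highest of the locus and the only one of the 7 in the top 25% of scores. It lies on the side of CCDC97, the protein-coding gene next to TGFB1 in RefSeq, with B9D2 on the other side. Whether it falls inside CCDC97 was not determined, so it belongs to the locus by position only. Scores of the TGFB1 locus were thus even: 6 of the 7 were between 8.52 and 12.7, above the median of 7.85 on chromosome 19, and the lowest was 5.87.

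TGFB2 encodes a ligand prominent in the development of heart and eye. Its span is the longest of the 4, at 98.4 kb (chr1:218519577-218617961, plus strand), and the locus held 5 summits. The highest, at position 218519405, lay 172 bp before the start and scored 19.3, which 7.04% of the summits on chromosome 1 reached. The next summit in the direction of transcription lay 32.36 kb into the gene and scored 4.04, and another followed 654 bp later with a score of 6.49. A summit 47.78 kb from the start scored 7.63, and the last of the locus, 9847 bp past the end, scored 6.49. The score fell from 19.3 at the start to at most 7.63 elsewhere in the locus, and the other 4 summits were all under the chromosome median of 8.28. No summit lay between 47.78 kb and the end of the gene, inside a summit-free stretch of 60.4 kb. Such stretches of at least this length hold 49.8% of the covered sequence of chromosome 1, but make up 11.6% of its stretches between neighboring summits. In RefSeq the span of TGFB2 overlaps an antisense transcript, TGFB2-AS1, and where in the span it lies was not determined. The list gives every summit the same strand, so the summit at the start of TGFB2 was not assigned to either gene.

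TGFB3 encodes the ligand best known from palate fusion. Its span, chr14:76424440-76448092 on the minus strand, is 23.7 kb long, and the locus held 7 summits, as many as TGFB1 in nearly the same length. A group of 4 of them surrounded the start within 10 kb. They lay 6952, 4168 and 1048 bp upstream and 2697 bp inside the gene, with scores of 5.07, 11.8, 5.10 and 5.80. Farther into the gene, summits lay 18.25 kb and 22.42 kb from the start with scores of 11.9 and 5.24, and the last of the locus lay 17926 bp past the end with a score of 7.37. The highest summit, at position 76429842, was matched or exceeded by 29.2% of the summits on chromosome 14. None of the 7 reached the top 25% of scores, and 5 were under the chromosome median of 8.74. The 2 highest, at 11.8 and 11.9, were just under the bound of 12.2, and the other 5 scored from 5.07 to 7.37. Of windows as long as this locus on chromosome 14, 51.6% held no summit of the top 25% either. The nearest summit of the top 25% lay 56.5 kb from the start, beyond the 3′ end and outside the locus, with a score of 16.4. In RefSeq, IFT43 is the protein-coding neighbor before the start of TGFB3 and TTLL5 the one past its end, and upstream summits were not assigned between TGFB3 and IFT43.

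TGFBR1 encodes the serine/threonine kinase through which all these ligands signal to SMAD2 and SMAD3, also named ALK5. Its span, chr9:101867412-101916474 on the plus strand, is 49.1 kb long, and the locus held 2 summits, the fewest of the 4. The first, at position 101868080, lay 668 bp into the gene and scored 15.8, which 13.5% of the summits on chromosome 9 reached. The other lay 5483 bp past the end of the gene and scored 6.49. Between them was a stretch of 53.9 kb without a summit that covered the gene from 668 bp after its start to its end. Stretches of at least this length hold 47.7% of the covered sequence of chromosome 9, but make up 11.0% of its stretches between neighboring summits. Upstream, the nearest summit lay 24.60 kb before the start, which is outside the locus.

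**Figure D2:**
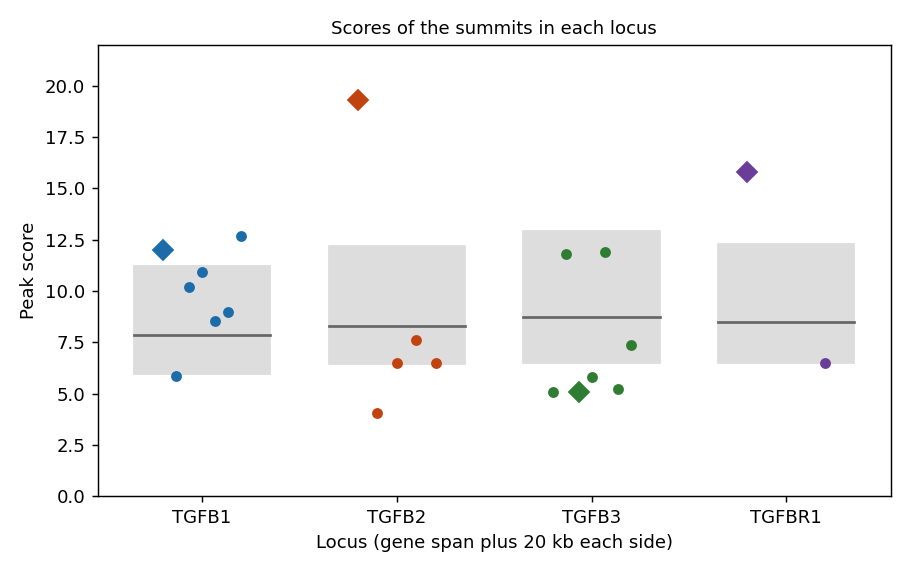
Peak score (vertical axis, no unit named) of every summit in each locus, in order of distance from the start from left to right; diamonds mark the summit nearest to the start. Grey boxes span the lower to upper quartile of scores on the same chromosome, with a line at the median. The diamonds of TGFB2 (19.3), TGFBR1 (15.8) and TGFB1 (11.99) lie above the box and that of TGFB3 (5.10) below it.

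The number of summits per locus was set beside that in all windows of the same length on the same chromosome. The windows did not overlap each other, stretches of at least 1 Mb without a summit were left out, and the locus itself was not counted. TGFB3 stood highest. Its 7 summits compared with a median of 2 in 1383 windows of chromosome 14, and 8.46% of these windows held at least as many (exact Clopper-Pearson 95% interval 7.05 to 10.1). The 7 summits of TGFB1 compared with a median of 5 in 885 windows of chromosome 19, and 31.3% held at least as many (28.3 to 34.5). The 5 summits of TGFB2 compared with a median of 4 in 1646 windows of chromosome 1, and 45.6% held at least as many (43.2 to 48.1). TGFBR1, with 2 summits, was under the median of 3 in 1377 windows of chromosome 9, and 70.2% held at least as many (67.7 to 72.6). Equal counts at TGFB1 and TGFB3 therefore stood at different places in their chromosomes: chromosome 19 carried 8.31 summits per 100 kb of covered sequence and chromosome 14 carried 4.09. Counts at TGFB1, TGFB2 and TGFBR1 were common ones for their chromosomes. Genes were not separated from intergenic sequence among the windows, and these shares are descriptions without a test.

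**Figure D3:**
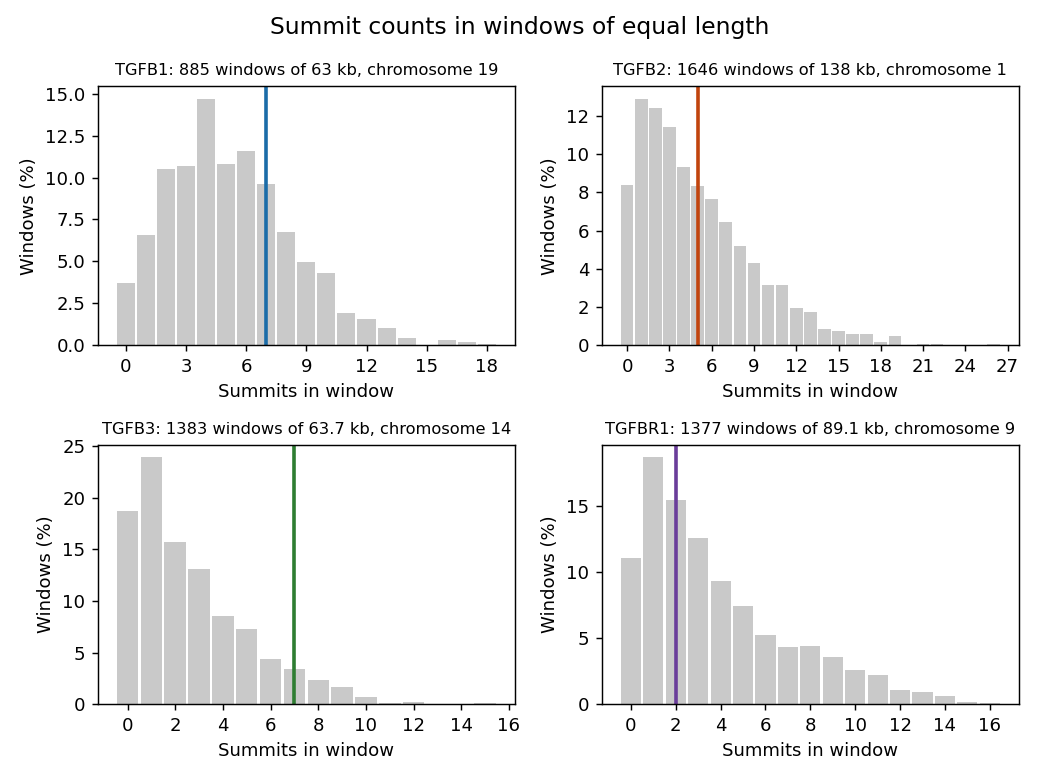
Share of windows (percent, vertical axis) by the number of summits they hold (horizontal axis), for windows as long as each locus on its chromosome. The colored line marks the locus: 7 summits for TGFB1, 5 for TGFB2, 7 for TGFB3 and 2 for TGFBR1, with the line of TGFB3 the farthest into the right tail of its histogram.

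The position of TGFB3 depended on the extent of the locus. With flanks of 50 kb, 19.7% of windows held at least as many summits, since only 2 more lay in the added sequence. For TGFB1 the share went from 31.3% to 13.8% for the gene span alone and to 15.3% with flanks of 50 kb. It rose to 47.8% among windows within 5 Mb of the gene. TGFB1 thus held more summits than the median window in each of these choices, but how far it stood above the middle varied widely. Over the top 25% of scores alone the share was 55.4%. As densities, the loci carried 11.1 summits per 100 kb at TGFB1 (exact Poisson 95% interval 4.47 to 22.9), 11.0 at TGFB3 (4.42 to 22.7), 3.61 at TGFB2 (1.17 to 8.43) and 2.25 at TGFBR1 (0.272 to 8.11). These intervals cover counting error only and all overlap, and differences in density between the loci were not tested.

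By their highest score the loci came in another order. At least 1 summit as high as that of TGFB2 (19.3) was present in 25.6% of the windows of chromosome 1, and one as high as that of TGFBR1 (15.8) in 37.8% of those of chromosome 9. For TGFB3 (11.9) the share was 49.0% and for TGFB1 (12.7) it was 52.8%, close to the middle of all windows. Of the 21 summits 3 were in the top 25% of scores, 1 each in the loci of TGFB1, TGFB2 and TGFBR1. Their share was 14.3% (95% interval 3.05 to 36.3 by the exact Clopper-Pearson method). In the list it was 26.3%, since ties at the bound raise it above 25%. The interval treats the 21 summits as independent, covers counting error only and is wide. Whether the share in the loci differs from that in the list was not tested.

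The start sites were then set beside every base of the covered sequence. On chromosome 1, 1.23% of bases were within 172 bp of a summit, the distance at TGFB2. On chromosome 9, 5.54% were as close as the start of TGFBR1, and on chromosome 14, 8.12% were as close as that of TGFB3. On chromosome 19, where summits are dense, 15.1% were as close as the start of TGFB1. Each of the 4 starts was hence nearer to a summit than most bases of its chromosome, but the order of the genes depended on the start used. With each start moved upstream by the excess length of the RefSeq span, the nearest summits stayed the same ones. They lay at 727 bp for TGFB2, 2151 bp for TGFBR1, 214 bp for TGFB3 and 1555 bp for TGFB1, all inside the gene. The summits of TGFB2 and TGFB3 were thus no longer upstream of the start. The shares of bases as close then became 5.03%, 16.4%, 1.76% and 22.9%, and TGFB3 in place of TGFB2 was the nearest. This shift takes the 3′ ends of both spans as shared, which was not checked.

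With the score taken into account, 0.0866% of bases on chromosome 1 were as close as the TGFB2 start to a summit that scored at least as high, and 0.769% on chromosome 9 were so for TGFBR1. The shares were 3.34% for TGFB1 and 7.37% for TGFB3. With the starts moved as above they were 0.364% for TGFB2, 2.45% for TGFBR1, 5.29% for TGFB1 and 1.58% for TGFB3, so only the place of TGFB2 as the lowest was the same for both sets of starts. The nearest summit of the top 25% of scores was the same one at TGFB2 and TGFBR1, but lay 22.8 kb upstream of TGFB1 and 56.5 kb from the start of TGFB3. With those high summits alone, 47.7% of bases on chromosome 19 and 66.7% on chromosome 14 were as close as the starts of TGFB1 and TGFB3. For TGFB1 this rests on the bound: the summit 975 bp inside the gene scored 11.99, just under the 12.2 that bounds the top 25%. No other start sites of GRCh37 were used here. Whether a summit near the start is more frequent at these genes than at other genes was not tested, and bases are not independent of each other.

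**Figure D4:**
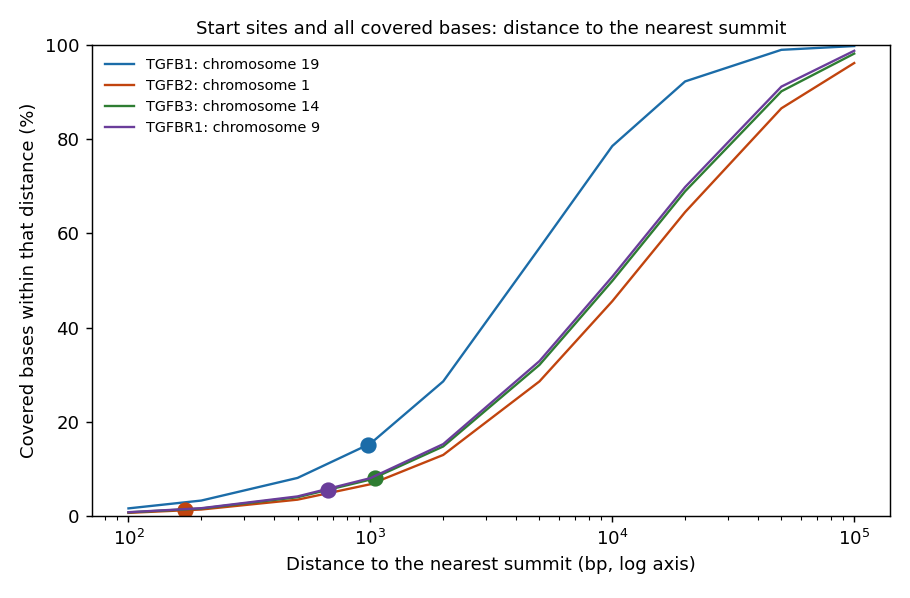
Percent of covered bases (vertical axis) that lie within a given distance of a summit (horizontal axis, bp, log scale), 1 line per chromosome. Each dot marks the start of the gene named in the legend, at 172 bp for TGFB2, 668 bp for TGFBR1, 975 bp for TGFB1 and 1048 bp for TGFB3; the line of chromosome 19 runs above the others at every distance drawn.

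The limit of 20 kb left close summits out in some loci. Just outside it, TGFB1 had a summit 20.14 kb upstream with a score of 5.64, TGFB2 had one 22.55 kb upstream with a score of 13.7, and TGFBR1 had one 24.60 kb upstream with a score of 11.2. The outermost summits inside the limit were the one 17926 bp past the end of TGFB3 (7.37) and the one 14221 bp past the end of TGFB1 (12.7). The start of TGFB1 thus lay in a summit-free stretch of 21.1 kb that ended 975 bp inside the gene. Stretches of at least this length hold 45.5% of the covered sequence of chromosome 19, but make up 14.5% of its stretches between neighboring summits.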

How the data were processed

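Per the file headers, the list deposited for the series holds a position, a strand and a score for each peak. Every row is 1 bp wide, so the end was taken as the summit. MACS appears in the list's name; its version and threshold, the aligner, the handling of duplicates and any use of IgG as control are not given in these sources. CASAVA 1.4 and the assemblies mm9 and GRCh38.p12 are named in the submitters' processing notes. Of all nuclear summits, 1093 lie past a chromosome end on GRCh38 and 0 on GRCh37 (hg19), by the length tables of GenomeInfoDb, so positions were read as GRCh37. No GRCh37 genome or annotation was used here, so exons were not assigned and other genes of the pathway were not placed.

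Covered sequence was the span from the first to the last summit of a chromosome without stretches of at least 1 Mb free of summits. All consecutive windows were used in place of random ones. Counts carry exact Poisson and shares of windows or summits exact Clopper-Pearson 95% intervals, for counting error only. For shares of bases, the interval took the number of summits on the chromosome as the sample size. It is therefore not an exact interval of that share and served only to sort the alternatives. There are no replicates and no test was made. Named summits were the highest, the nearest to the start, any within 1 kb of it and, in loci with 6 or fewer, all; the other summits of TGFB1 and TGFB3, the joint measure of distance and score, the stretches between summits and the surroundings were chosen after their values were seen. Functions were checked on simulated summits (Python 3.11.15, numpy 2.4.6, scipy 1.17.1, pandas 2.3.3). Members, lists and measures were chosen with earlier results of these data known. Alternatives were other flanks, shifted windows, the top 25% of scores, windows within 5 Mb, uncut chromosomes and, chosen after seeing the data, removal of scores shared by at least 150 summits and a start moved by the excess length of the RefSeq span.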

Additional observations from a re-analysis of the deposited data

How the results depend on the processing

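Of 60 alternatives over 12 results, 28 stayed within the interval of the value and 32 moved outside it. All 16 changes of flank kept the density within its interval, but these intervals rest on 2 to 7 summits and are wide. With flanks of 100 kb the density was 5.37 summits per 100 kb at TGFB3 and 5.22 at TGFBR1, against 11.0 and 2.25 with 20 kb. At TGFB1 and TGFB2 it was 12.6 and 3.69, against 11.1 and 3.61. Shares of windows with at least as many summits follow in the order TGFB1, TGFB2, TGFB3 and TGFBR1. They were 55.4%, 64.5%, 100% and 60.3% over the top 25% of scores, where TGFB3 has no summit and every window qualifies. They were 47.8%, 32.9%, 5.81% and 76.4% within 5 Mb, and 13.8%, 53.9%, 10.8% and 75.5% for the gene span alone. With flanks of 50 kb TGFB1 had 15.3%, TGFB3 19.7% and TGFBR1 52.1%. Without scores shared by at least 150 summits TGFB1 had 28.2%, TGFB2 55.0% and TGFBR1 61.7%. On uncut chromosomes TGFB2 had 41.9% and TGFBR1 60.6%. Shares of bases as close to a summit as the start went, over the top 25% of scores, to 47.7%, 0.316%, 66.7% and 1.53%; within 5 Mb to 19.5% for TGFB1, 0.873% for TGFB2 and 6.32% for TGFBR1; and on the uncut chromosome to 4.82% for TGFBR1. A start moved upstream by the excess length of the RefSeq span takes the 3′ ends of both spans as shared, which was not checked. With that start the shares of bases were 22.9%, 5.03%, 1.76% and 16.4%, as the distance to the summit changed. The cause was not tested. No paired analysis was possible because each antibody has 1 library and no result comes from a test, and leaving 1 out would leave none. The limit set by sequencing depth is unknown.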

Other observations

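Beyond the loci, from 20 to 100 kb outside the gene spans, the counts of summits differed between the genes. Their chromosomes also differ in density. For TGFB1, TGFB2, TGFB3 and TGFBR1 these carried 8.31, 3.57, 4.09 and 4.27 summits per 100 kb of covered sequence. The surroundings were not set beside windows of equal length. TGFB1 had 12 summits upstream and 9 downstream, with scores up to 18.9 and 19.8, and 5 of these 21 were in the top 25% of scores. Those 22.8 kb and 29.92 kb upstream of its start scored 18.9 and 18.7, both higher than any summit in the locus. TGFBR1, with only 2 summits in its locus, had 4 upstream and 7 downstream, and 4 of these 11 were in the top 25%. TGFB3 had 2 upstream and 3 downstream, and 1 of these 5 was in the top 25%. They were fewer than the 7 within its locus, although the sequence that holds them is longer than the locus. TGFB2 had 4 upstream, with scores from 9.90 to 13.7, and 2 downstream, with scores of 10.2 and 6.49. Of these 6, 2 were in the top 25%. In the whole list this share was 26.3%, and whether the surroundings differ from it was not tested.

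Some scores of the list recur exactly. Each of 19 scores belongs to 150 summits or more, and together these make up 29.4% of the list. In the 4 loci 5 of 21 summits (23.8%) carried such a score: 3 of the 5 at TGFB2, 1 of the 7 at TGFB3, 1 of the 2 at TGFBR1 and 0 of the 7 at TGFB1. The score 6.49 past the end of TGFB2, 33.01 kb inside TGFB2 and past the end of TGFBR1 was the same value and was shared by 3569 summits. None of the summits nearest to the 4 starts carried one of these 19 scores.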
